A study of Mus musculus with 6 samples.

Results

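Expression was examined for 10 genes of sodium reabsorption in the loop of Henle and the distal nephron: Slc12a1, Kcnj1, Umod, Slc12a3, Wnk4, Scnn1a, Scnn1b, Scnn1g, Nr3c2 and Hsd11b2. They were chosen by name, with earlier results of these data known. Their probes are those whose accession belongs to 1 of these genes in RefSeq's annotation of assembly GRCm38.p6. Each of the 10 genes had 1 such probe, well above background on all 6 arrays, so all 10 are among the 15310 genes tested. Whole kidneys of male C57BL/6J mice were compared, 3 labelled as iNampt-conditional knockout and 3 labelled as control, with 1 single-colour Agilent array per animal. The series title places the work in renal proximal tubules and diabetic nephropathy. The Cre driver, the deleted exons, the animals' age and any diabetic treatment are not given in the sources used here. The replicates are numbered as separate mice, so p-values rest on the spread between these animals, and their number limits the precision. Knockouts 2 and 3 lay in another slide row than knockout 1 and the controls, so this spread holds slide row as well. Each gene's variance was also moderated by that of all genes.

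The thick ascending limb of the loop of Henle takes up sodium, potassium and chloride through the cotransporter NKCC2, and ROMK channels return the potassium to the lumen. The distal convoluted tubule reabsorbs sodium with chloride through the cotransporter NCC, which WNK kinases control. In the connecting tubule and collecting duct sodium enters through the epithelial channel ENaC, whose level is set by aldosterone through the mineralocorticoid receptor. The series title points to the proximal tubule, upstream of all these segments, and the arrays measured RNA of the whole organ. In such bulk RNA, fewer cells of a type and less RNA per cell cannot be told apart.

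None of the 10 genes passed a Benjamini-Hochberg adjusted p of 0.05 in limma's test across all genes, where 0.17% of the genes tested passed. At an unadjusted p under 0.05 there was 1 of the 10, Kcnj1, against 12.8% of all genes. The same share of all genes stands beside the counts at that threshold for the other lists below. The difference was below 0 for 8 genes and above 0 for 2, beside 52.9% of all genes below 0. The median log2 difference (knockout minus control) was -0.08 over the 10 genes and -0.01 over all genes tested. For 8 of the 10 genes the 95% interval of the difference lay wholly within a 1.5-fold change in either direction, as it did for 84.4% of all genes, and for Scnn1g and Nr3c2 it reached further. Levels below are log2 signals minus the array's 75th percentile, and they are compared only between arrays for the same probe.

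Nampt, which encodes the rate-limiting enzyme of NAD salvage and is the targeted gene, had levels of 1.804, 1.502 and 1.532 in the knockouts, against 2.78, 2.59 and 2.65 in the controls. All knockouts lay below all controls, and the gene passed over all genes (log2 difference -1.06 ± 0.10, SE; limma adjusted p = 0.0432). That call was lost without control 1 (adjusted p = 0.0755), without control 2 (0.172) or control 3 (0.184), and without knockout 2 (0.172) or knockout 3 (0.173). Knockout 1 shared the first row of the slide with the 3 controls, and knockouts 2 and 3 were hybridised in the second row. The Nampt call was lost as well when slide row was a block (-0.87; adjusted p = 0.0719), within the first row (-0.87; 0.159), with the replicate block (-1.06; 0.0895), with quantile normalisation (-1.04; 0.0581) and against a 1.5-fold minimum (1). Spots well above background made up 57.3% to 63.3% of each array, with none saturated. In all, 26 of the 15310 genes passed. That count was 95 when knockout 1 was left out, 1 when either knockout 2 or knockout 3 was, and 0 when either control 2 or control 3 was (1444 and 1564 genes had an unadjusted p under 0.05).

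**Figure D1:**
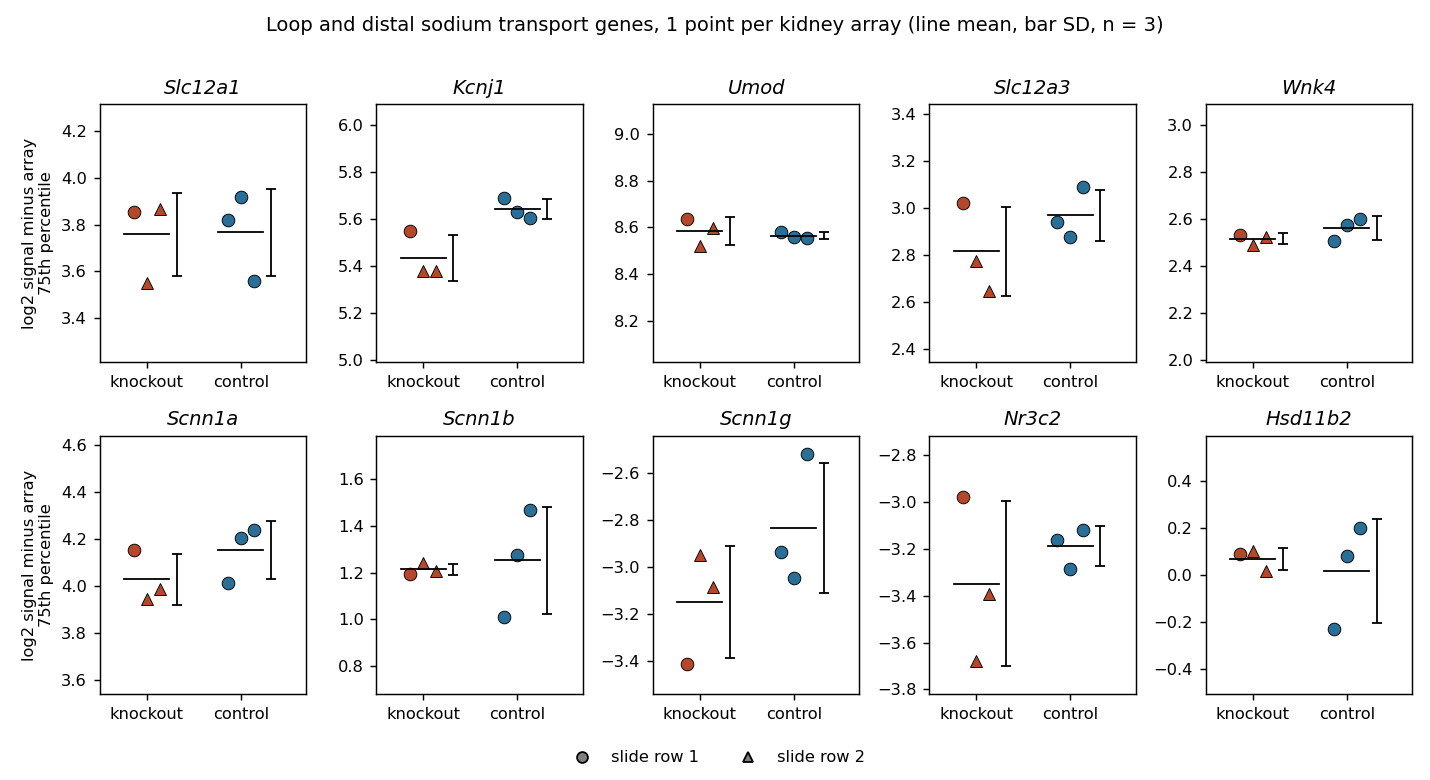
Level of each of the 10 genes by array (y axis, log2 signal minus the array's 75th percentile, every panel of the same height), knockout left and control right. Points are kidneys, circles in slide row 1 and triangles in slide row 2, the line is the mean and the bar the SD (n = 3); only Kcnj1 shows all knockouts below all controls.

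In the thick ascending limb, Slc12a1 encodes NKCC2, the target of loop diuretics. Its level was 3.85, 3.55 and 3.87 in the knockouts, against 3.82, 3.92 and 3.56 in the controls. Each group held 1 low kidney, knockout 2 and control 3, and the groups overlapped over most of their range. The means were 3.76 ± 0.18 in the knockouts and 3.77 ± 0.18 in the controls (SD, n = 3 each). The log2 difference was -0.01 ± 0.13 (SE; 95% interval -0.32 to 0.30; limma adjusted p = 0.986), which is -0.609% on the linear scale with an interval from -20.0% to 23.4%.

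Kcnj1 encodes ROMK, the potassium channel of the luminal membrane of the thick ascending limb and of principal cells. Its level was 5.55, 5.38 and 5.38 in the knockouts, against 5.69, 5.63 and 5.60 in the controls. Every knockout lay below every control, with knockout 1 nearest to them; groups that do not overlap were found in 19.5% of all genes, and with the knockouts lower in 10.5%. The means were 5.43 ± 0.10 in the knockouts and 5.64 ± 0.04 in the controls (SD, n = 3 each). The log2 difference was -0.21 ± 0.06 (SE; 95% interval -0.37 to -0.05), or -13.3% with an interval from -22.4% to -3.25%. It did not pass over all genes (limma adjusted p = 0.296; unadjusted p = 0.0191). Over 20 other settings the difference ran from -0.26 to -0.09, the value with slide row as a block, and the adjusted p from 0.0706 to 1. Kcnj1 was the single gene of the 10 whose difference exceeded the range of the 3 controls.

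The promoter of Kcnj1 is shown because Kcnj1 is the gene of the 10 whose groups did not overlap and because the mineralocorticoid receptor belongs to the same axis. The sequence runs from 250 bases before to 50 after the annotated start (RefSeq, GRCm38.p6, chr9:32393735-32394034, plus strand). Capitals mark AGAACA, a half-site of steroid hormone receptors, searched as AGAACA and as its reverse complement TGTTCT.
Kcnj1: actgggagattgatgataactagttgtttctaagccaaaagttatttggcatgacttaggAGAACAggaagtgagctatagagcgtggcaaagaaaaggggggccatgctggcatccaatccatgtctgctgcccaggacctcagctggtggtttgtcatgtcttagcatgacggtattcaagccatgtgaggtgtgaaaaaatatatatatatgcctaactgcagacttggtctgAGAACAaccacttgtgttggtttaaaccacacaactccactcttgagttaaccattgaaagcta
The 6 letters occurred 2 times in this window. Of the 10 genes, 8 had a promoter in the table and 1 of these 8, Kcnj1, held the motif, as did 19.0% of all 32851 promoters of this length. A match of letters is not a binding site, and the arrays do not measure binding.

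Umod encodes uromodulin, the most abundant protein of normal urine, secreted by the thick ascending limb. Its level was 8.64, 8.52 and 8.60 in the knockouts, against 8.58, 8.56 and 8.55 in the controls. The controls lay very close together and inside the range of the knockouts. The means were 8.58 ± 0.06 in the knockouts and 8.57 ± 0.01 in the controls (SD, n = 3 each). Umod's log2 difference was 0.02 ± 0.05 (SE; limma adjusted p = 0.906), with an interval from -6.81% to 10.2% on the linear scale. No spot was saturated on any array, Umod's included.

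In the distal convoluted tubule, Slc12a3 encodes NCC, the target of thiazide diuretics. Its level was 3.02, 2.77 and 2.65 in the knockouts, against 2.94, 2.88 and 3.09 in the controls. Knockouts 2 and 3 lay below all controls, while knockout 1 lay between the second and the highest of them. The means were 2.81 ± 0.19 in the knockouts and 2.97 ± 0.11 in the controls (SD, n = 3 each). Slc12a3 had a log2 difference of -0.15 ± 0.11 (SE; 95% interval -0.43 to 0.12; limma adjusted p = 0.636), or -10.1% with an interval from -25.6% to 8.62%. With slide row as a block, a fit that rests on knockout 1 against the 3 controls beside it, the difference was 0.05 ± 0.11 (SE; adjusted p = 0.921).

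Wnk4 encodes the kinase that acts on NCC through SPAK and is mutated in familial hyperkalaemic hypertension in humans. Its level was 2.53, 2.49 and 2.52 in the knockouts, against 2.51, 2.58 and 2.60 in the controls. The knockouts spanned a narrower range than the controls, and control 1 lay among them. Wnk4 had a log2 difference of -0.05 ± 0.05 (SE; limma adjusted p = 0.754), with an interval from -10.7% to 5.12% on the linear scale.

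ENaC is built from the alpha, beta and gamma subunits encoded by Scnn1a, Scnn1b and Scnn1g. Scnn1a had levels of 4.15, 3.94 and 3.99 in the knockouts, against 4.01, 4.20 and 4.24 in the controls. Knockouts 2 and 3 were the lowest kidneys, followed by control 1, and knockout 1 lay among the controls. Its log2 difference was -0.12 ± 0.09 (SE; limma adjusted p = 0.627), or -8.24% with an interval from -21.0% to 6.52%. Blocking on slide row gave -0.0003 ± 0.11 for Scnn1a (SE).

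Scnn1b had levels of 1.196, 1.239 and 1.205 in the knockouts, against 1.01, 1.28 and 1.47 in the controls. All knockouts fell inside the range of the controls, which was the wider of the groups with an SD of 0.02 in the knockouts and 0.23 in the controls. The log2 difference was -0.04 ± 0.12 (SE; limma adjusted p = 0.922), with an interval from -20.0% to 18.6% on the linear scale, and it was 0.07 without control 3.

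Scnn1g had levels of -3.41, -2.95 and -3.08 in the knockouts, against -2.94, -3.04 and -2.52 in the controls. Knockout 1 was the lowest kidney and control 3 the highest, and the remaining 4 kidneys overlapped. The means were -3.15 ± 0.24 in the knockouts and -2.83 ± 0.28 in the controls (SD, n = 3 each). The log2 difference was -0.31 ± 0.18 (SE; 95% interval -0.75 to 0.12; limma adjusted p = 0.530). On the linear scale this is -19.6% with an interval from -40.5% to 8.78%. Without control 3 the difference was -0.16, without knockout 1 it was -0.18, and the block on slide row, resting again on knockout 1, gave -0.58 ± 0.22 (SE; adjusted p = 0.478). The lowest kidneys thus differed between the subunits, knockouts 2 and 3 for Scnn1a and knockout 1 for Scnn1g.

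The genes nearest to Scnn1g, which had the largest difference of the 10, were sought by the distance between mean-centred levels over the 6 arrays. Ccdc158 was nearest among the 15300 other genes at a distance of 0.187, but its probe was well above background on the controls alone. Next were Dpep1, a dipeptidase of the proximal tubule brush border, at 0.231, then Zfp738 and Ripply2 at 0.25 each. Dpep1 had a log2 difference of -0.27 ± 0.12, Zfp738 of -0.25 ± 0.12 and Ripply2 of -0.17 ± 0.13 (SE), none passing over all genes (limma adjusted p = 0.424, 0.466 and 0.669). Their levels, like that of Scnn1g, were lowest in knockout 1 and highest in control 3, a likeness that the choice by distance selects for.

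The mineralocorticoid receptor, encoded by Nr3c2, binds aldosterone and switches on ENaC subunits and their regulators. Nr3c2 had levels of -2.98, -3.68 and -3.39 in the knockouts, against -3.16, -3.29 and -3.12 in the controls. The knockouts lay on both sides of the controls, with knockout 1 the highest kidney of all and knockouts 2 and 3 the lowest. The log2 difference was -0.16 ± 0.18 (SE; limma adjusted p = 0.765), or -10.5% with an interval from -33.6% to 20.6%. It was 0.21 ± 0.14 with slide row as a block (SE; adjusted p = 0.691). The lowest signal well above background, on the same scale, was -4.72 and -4.64 on the arrays of knockouts 2 and 3 and between -5.55 and -5.31 on the other 4 arrays; its part in the values of Scnn1g and Nr3c2 was not tested.

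Hsd11b2 encodes the dehydrogenase that inactivates glucocorticoids and so leaves the receptor to aldosterone. Its level was 0.09, 0.10 and 0.02 in the knockouts, against -0.23, 0.08 and 0.20 in the controls. The knockouts sat together inside the control range, and control 1 stood lowest, as it did for Scnn1b. For Hsd11b2 the log2 difference was 0.05 ± 0.11 (SE; limma adjusted p = 0.886), with an interval from -14.5% to 25.9% on the linear scale.

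**Figure D2:**
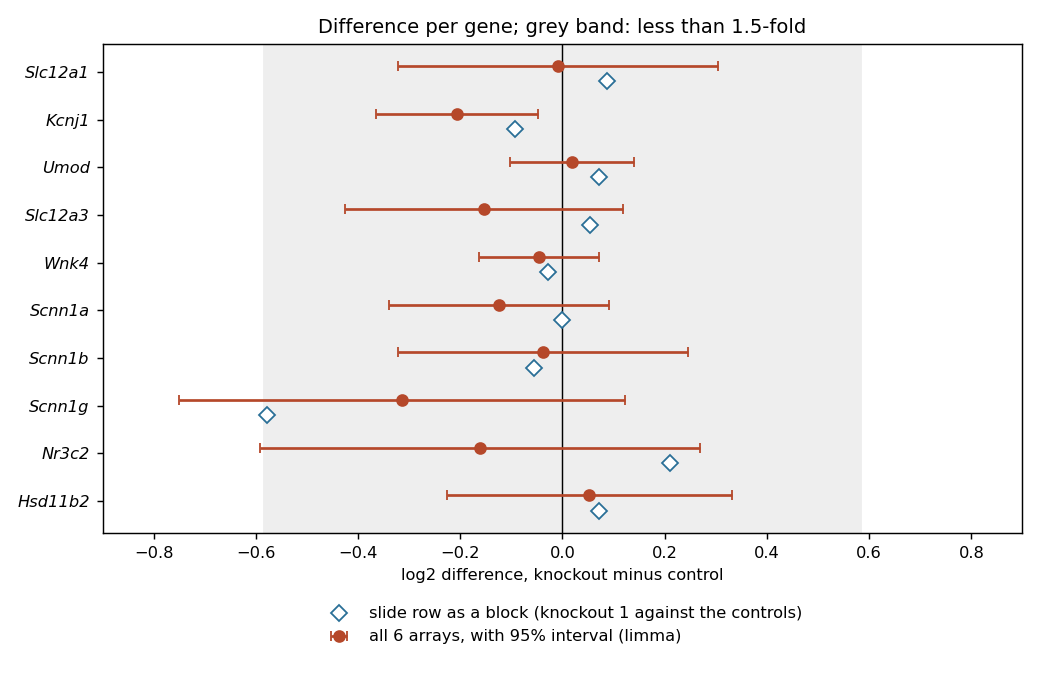
Log2 difference, knockout minus control, of each of the 10 genes (x axis) with its 95% interval from limma over all 6 arrays (filled circles), and the difference with slide row as a block (open diamonds). The grey band marks less than 1.5-fold; the Kcnj1 interval is the only one that leaves out 0, and those of Scnn1g and Nr3c2 reach past the band.

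The within-group SD of the 10 genes had a median of 0.16 log2 units and ran from 0.04 to 0.26, beside a median of 0.09 over all genes tested. For 9 of the 10, the 3 controls alone spanned a wider range than the difference between the groups. Control 3 was the highest control in 7 of the 10 genes. The shares of all genes were not counted for the control range or for control 3, so neither count is read as particular to these genes. Knockout 1 lay above both other knockouts in 6 of the 10 genes, as it did in 33.4% of all genes. Among these 6 were Kcnj1, Slc12a3, Scnn1a and Nr3c2. With slide row as a block, 5 of the 10 genes had a difference below 0 and 5 above, and the median was 0.03. The row and the group can be told apart only through knockout 1, the single knockout beside the controls.

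Partners of the 10 genes in the loop were examined as a list of 15 genes, all tested. None passed over all genes in limma's test, 3 had an unadjusted p under 0.05, and the median log2 difference was -0.05. These 3 were all lower on average and did not overlap between groups. Of all genes, 12.8% had an unadjusted p under 0.05 and 19.5% did not overlap. Casr encodes the calcium-sensing receptor of the thick ascending limb, where it restrains salt uptake. Casr had levels of 1.47, 1.22 and 1.25 in the knockouts, against 1.60, 1.64 and 1.75 in the controls (log2 difference -0.36 ± 0.08, SE; limma adjusted p = 0.216), and passed with array weights alone (-0.38; adjusted p = 0.0428). Under the block on slide row Casr was at -0.20. Kcnj10, a potassium channel of the basolateral membrane of the distal convoluted tubule, was at -0.18 ± 0.07 (adjusted p = 0.368) and at -0.05 under that block. Atp1b1, the beta subunit of the sodium pump that drives transport in every segment, was at -0.13 ± 0.05 (adjusted p = 0.349). The chloride channel subunit gene Bsnd was at -0.26 ± 0.13 (adjusted p = 0.466).

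Of the 12 genes listed for the WNK and SPAK pathway, 10 were tested and none passed over all genes; 2 had an unadjusted p under 0.05 and the median was -0.05. Wnk1, whose kidney form is made in the distal convoluted tubule, had levels of 4.50, 4.41 and 4.44 in the knockouts, against 4.53, 4.59 and 4.68 in the controls. By this brighter of its 2 probes the log2 difference of Wnk1 was -0.15 ± 0.06 (SE, limma adjusted p = 0.362). With the mean of probes it was -0.10 ± 0.06 (SE, limma adjusted p = 0.597). Wnk2 was at 0.40 ± 0.11 (adjusted p = 0.257). The kinase genes Oxsr1 and Stk39, which encode OSR1 and SPAK, the enzymes that phosphorylate NCC and NKCC2, were at -0.10 ± 0.05 (adjusted p = 0.468) and -0.04 ± 0.07 (0.875). Klhl3 had no probe named through the RefSeq table, and Wnk3 did not pass the filter on dim probes.

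All 16 listed regulators of ENaC and genes of the mineralocorticoid response were tested. None passed over all genes, 1 had an unadjusted p under 0.05, and 7 were above 0 and 9 below (median -0.01). The aldosterone-induced genes Sgk1, Tsc22d3 and Per1 were at 0.18 ± 0.17, 0.16 ± 0.17 and 0.29 ± 0.12 (SE; limma adjusted p from 0.411 to 0.751). Per1, also a clock gene, had levels of 2.95, 3.31 and 3.34 in the knockouts, against 2.78, 3.01 and 2.95 in the controls, and was at 0.04 with slide row as a block. The deubiquitinase gene Usp2 was at 0.23 ± 0.10 (adjusted p = 0.406) and at 0.04 with the same block. Mllt3, whose protein represses the Scnn1a promoter together with Dot1l in mouse cells, had levels of -1.49, -1.42 and -1.33 in the knockouts, against -1.26, -1.26 and -1.18 in the controls, which did not overlap (-0.18 ± 0.06; adjusted p = 0.307). Prss8, a protease that cleaves and activates ENaC, was at -0.17 ± 0.07 (adjusted p = 0.428).

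**Figure D3:**
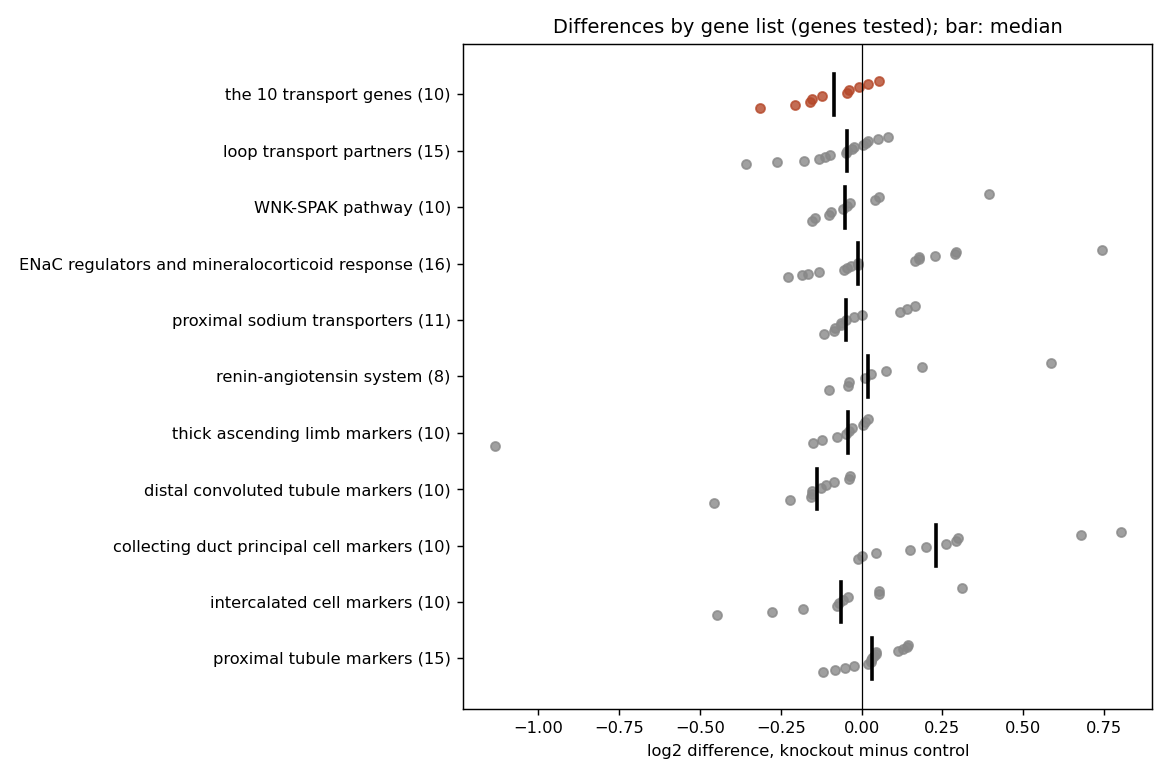
Log2 difference, knockout minus control (x axis), of every tested gene of the 10 transport genes and of 10 related lists (rows, number tested in brackets), with the list median as a black bar. No gene shown passed over all genes; the distal convoluted tubule markers all lie below 0, with a median of -0.14, and 9 of the 10 principal cell markers above it, with a median of 0.23.

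Markers of the segments that carry the 10 genes were present and were compared as well. Of 10 markers of the thick ascending limb, all tested, none passed over all genes and the median was -0.04. Enox1 was well above background on all 3 control arrays and on no knockout array (limma adjusted p = 0.0630). With each knockout array set at its lowest signal well above background, the knockout mean was 1.38-fold below the control mean. Control 3, at -4.71, lay near that signal on the arrays of knockouts 2 and 3 (-4.72 and -4.64). The Enox1 probe was kept through the control arrays alone, so neither its bound nor its p is support for a difference. No other gene of the list had an unadjusted p under 0.05. Egf, a product of the thick ascending limb and distal convoluted tubule, was at -0.12 ± 0.09 (adjusted p = 0.636) and at 0.06 under the row block. The summed level of the list, in multiples of the array's 75th percentile, ran from 126 to 150 in the knockouts and from 142 to 146 in the controls.

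All 10 markers of the distal convoluted tubule had a difference below 0, none passing over all genes and 2 at an unadjusted p under 0.05 (median -0.14). The calcium-binding protein gene Pvalb was at -0.46 ± 0.25, the homeobox gene Emx1 at -0.22 ± 0.09 (-0.13 with slide row as a block) and the magnesium channel gene Trpm6 at -0.16 ± 0.17 (SE; limma adjusted p from 0.368 to 0.760). The list's summed level ran from 52.5 to 57.3 in the knockouts and from 61.4 to 68.2 in the controls, without overlap. This sum includes Wnk1, which is also in the WNK list and did not overlap by the brighter of its 2 probes (-0.15 ± 0.06, SE). With the mean of probes Wnk1 was at -0.10 ± 0.06 (SE). Wnk1 is also 1 of the 2 markers at an unadjusted p under 0.05, and its part in the sum was not tested. The list's median relative to the control mean stood at -0.06, -0.17 and -0.16 in knockouts 1, 2 and 3, against -0.07, -0.02 and 0.08 in controls 1, 2 and 3, so knockout 1 lay beside control 1. Slc12a3, found in the same cells, was at -0.15, and whether the list's level has a part in the Slc12a3 value was not tested.

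Principal cells of the collecting duct carry ENaC. Of their 10 markers, 9 had a difference above 0 and 1 below, none passing over all genes and none at an unadjusted p under 0.05 by limma (median 0.23, and 0.10 under the row block). The water channel genes Aqp2 and Aqp4 were at 0.30 ± 0.28 and 0.68 ± 0.41, and the transcription factor gene Gata3 at 0.26 ± 0.12 (SE; limma adjusted p from 0.445 to 0.716). The list's summed level ran from 349 to 397 in the knockouts and from 327 to 367 in the controls, and its median was highest in knockout 3 at 0.42 and in control 2 at 0.22. The 3 ENaC subunit genes, none of which passed, were at -0.12, -0.04 and -0.31 in the same kidneys, and at -0.0003, -0.06 and -0.58 with slide row as a block.

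**Figure D4:**
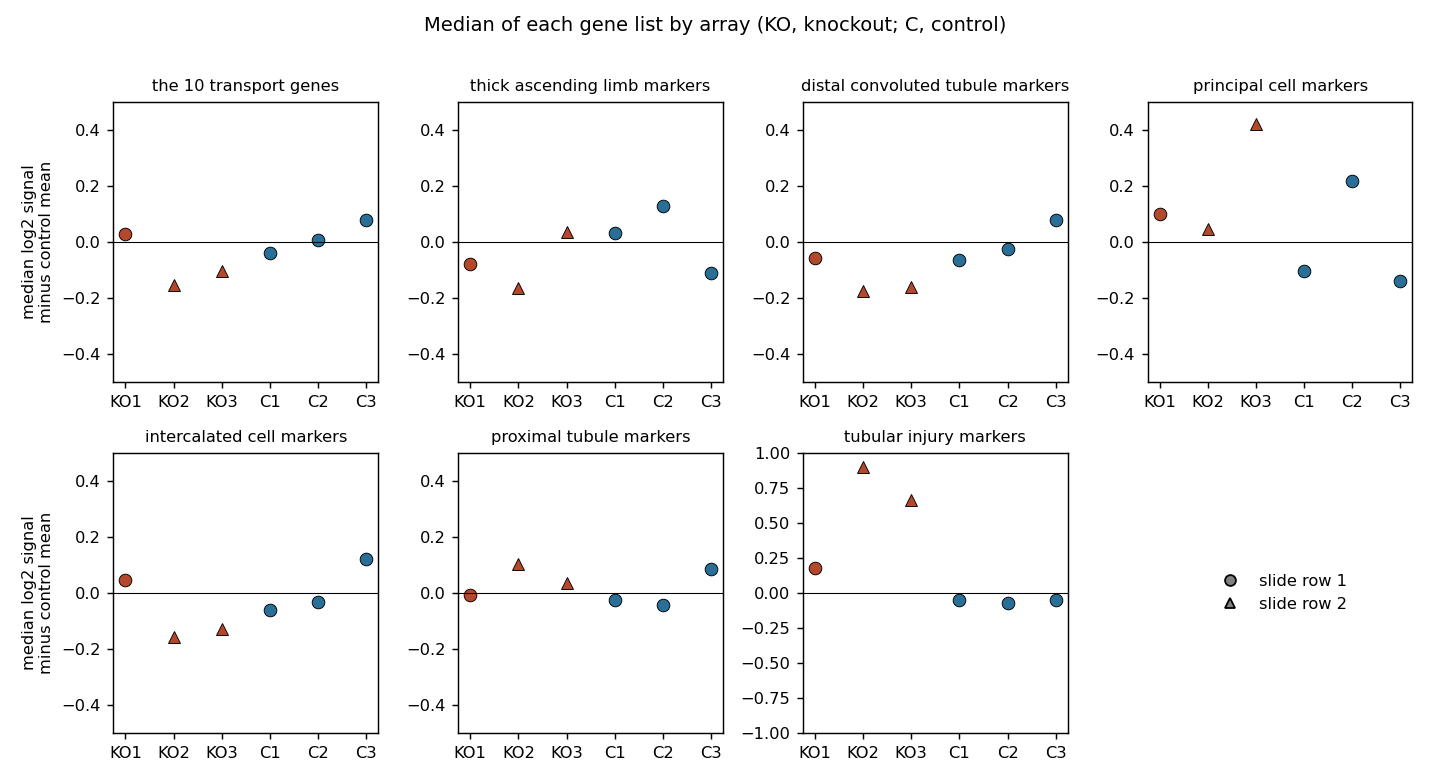
Median level of each list by array relative to the control mean (y axis, log2 units; the injury panel has a wider scale), knockouts left and controls right, circles in slide row 1 and triangles in slide row 2. The 10 transport genes lie at 0.03, -0.15 and -0.10 in the knockouts, against -0.04, 0.005 and 0.08 in the controls, while the injury markers lie at 0.18, 0.90 and 0.66 in the knockouts, against -0.05, -0.07 and -0.05 in the controls.

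Of 10 tubular injury markers, all tested, none passed over all genes and 8 had an unadjusted p under 0.05. Their median was 0.62, and 0.18 under the row block. Havcr1, which encodes the proximal tubule injury marker KIM-1, was at -1.90, 0.59 and 0.23 in the knockouts, against -3.77, -4.17 and -4.27 in the controls (log2 difference 3.71 ± 0.65, SE; limma adjusted p = 0.138). Havcr1 passed with array weights (4.15; adjusted p = 0.0217) and without knockout 1 (4.49; 0.00448), and was at 2.17 when slide row was a block (0.0745). The part of injury in the levels of the 10 transport genes was not tested. Among other cell types, the median log2 difference was 0.28 for 10 macrophage markers, 0.39 for 7 T cell markers, 0.07 for 8 podocyte markers and 0.003 for 10 endothelial markers. It was -0.71 for 6 red cell markers, 5 of them below 0, and -1.11 for 5 adipocyte markers, all below 0. At an unadjusted p under 0.05 there were 7 of the 10 macrophage, 1 of the 7 T cell, 2 of the 6 red cell and 1 of the 5 adipocyte markers, none of the podocyte and endothelial ones, and none of these genes passed over all genes. Blocking on slide row gave medians of 0.28 for the macrophage, 0.21 for the T cell, -0.04 for the red cell and -1.50 for the adipocyte markers. The part of these cell types in the levels of the 10 genes was not tested.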

How the data were processed

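The authors obtained spot intensity from the scans with Agilent Feature Extraction 10.7.1.1, as the submitters' processing notes and, per the file headers, the arrays state. Background subtraction and detrending were done array by array, without scaling between them; the 0 or 1 spot flags were used as deposited. The authors' deposited table holds a linear ratio of that signal to a constant of each array, as tested against the 6 files; the software that made it is not named there.

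Log2 of the processed intensity was averaged over spots of a probe without outlier spots, and each array's 75th percentile was subtracted. A probe was kept (32949 of 55681) if every array of either group had it well above background. Of all probes, 28026 were named through accessions of the RefSeq table of GRCm38.p6, which differs from the design's build. The probe of highest mean stood for a gene. The groups were compared with limma 3.58.1 in R 4.3.3 over 15310 genes (Benjamini-Hochberg at 0.05). On simulated data this fit recovered 62.4% of genes changed 1.5-fold, and 4.73% of its calls were false. The simulation held no effect of slide row, so it is no check on slide row. Python 3.11.15, pandas 2.3.3 and matplotlib 3.10.9 did the rest. With 3 against 3, an exact two-sided permutation test cannot go below p = 0.1. A gene not detected in a group has a bound, from the lowest signal detected above background. The 10 genes and the other lists were chosen with earlier results of these data known. Genes named from a list are those passing and the 3 (pathways) or 2 (markers) of smallest p, with the 4 nearest profiles to Scnn1g; Bsnd, Stk39, Klhl3, Wnk3, Sgk1, Tsc22d3, Prss8, Pvalb, Trpm6, Aqp2, Aqp4 and Foxi1 were added for their known roles, after their values were seen. Some genes that the rule takes are not reported here. The normexp setting used an offset of 50 on median spot signals.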

Additional observations from a re-analysis of the deposited data

How the results depend on the processing

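None of the 10 transport genes passed in any of the 20 other settings of limma's fit. The count of all genes called, 26 in the main setting, was 11 with quantile normalisation, 77 with no filter on dim probes, 57 with a trended and robust variance, 338 with array weights, 1 with a 1.5-fold minimum, 16 in the fit that has slide row as a block and 0 in the fit with the replicate block (1635 at an unadjusted p under 0.05). Leaving out 1 array gave 0 to 95. Same-numbered kidneys deviated from their group means with r of 0.11, -0.10 and -0.02 across genes. Knockout 1 correlated best with control 1, and knockouts 2 and 3 with a control of another number. Correlations this small, over 3 arrays per group, cannot show whether the numbers pair the samples. The median over the 10 genes ran from -0.15 to 0.03 and was above 0 with slide row as a block or within that row (0.03 each). Some differences changed sign, those near 0 and also those of Slc12a3 and Nr3c2, at -0.15 and -0.16 in the main setting. Slc12a1 was at 0.013 with quantile normalisation, 0.0027 with quantile normalisation after normexp, and 0.087 under the row block or within row 1, and from -0.11 to 0.094 with 1 array left out. With the row block and within row 1, Slc12a3 was at 0.054, Nr3c2 at 0.21 and Egf at 0.063. With 1 array left out, Scnn1b ran from -0.16 to 0.07, Nr3c2 from -0.35 to 0.0030, Hsd11b2 from -0.070 to 0.14 and Umod from -0.0062 to 0.052. The cause of these shifts was not tested. All 10 probes were well above background on all 6 arrays, and a limit set by signal over background was not tested.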

Other observations

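Sodium transport upstream and the hormone system that controls it were also measured. All 11 sodium transporters and scaffold genes of the proximal tubule were tested, none passed over all genes by limma, 1 had an unadjusted p under 0.05, and the median log2 difference was -0.05. Slc20a2, a sodium-phosphate cotransporter, had levels of 2.46, 2.53 and 2.45 in the knockouts, against 2.33, 2.28 and 2.34 in the controls (0.16 ± 0.05, SE; limma adjusted p = 0.269). Slc9a3, the sodium-proton exchanger of the brush border, was at 0.12 ± 0.06 (adjusted p = 0.451) by the brighter of its 2 probes. It was at 0.02 ± 0.10 with the mean of probes and at 0.05 with slide row as a block. Of 10 listed genes of the renin-angiotensin system 8 were tested and none passed, with none at an unadjusted p under 0.05. Agtr1a, the angiotensin receptor, was at 0.08 ± 0.06 (adjusted p = 0.640) and Mas1 at 0.59 ± 0.29 (0.468), with control 1 the highest of the 6 kidneys for Mas1.

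Intercalated cells share the collecting duct with principal cells. Their chloride-bicarbonate exchanger pendrin is encoded by Slc26a4. Slc26a4 had levels of 3.89, 3.91 and 3.77 in the knockouts, against 4.25, 4.21 and 4.44 in the controls, which did not overlap. Its log2 difference was -0.45 ± 0.08 (SE, limma adjusted p = 0.138), and -0.41 with slide row as a block. It passed with array weights alone (limma adjusted p = 0.0402). Slc26a4 lies on chromosome 12, as does the targeted gene Nampt, and the part of the targeted locus in its level was not tested. The proton pump subunit gene Atp6v1g3 was at -0.28 ± 0.06 and Foxi1, a transcription factor gene of intercalated cells, at 0.31 ± 0.07 (adjusted p = 0.205 each). None of the 10 listed markers passed over all genes, these 3 had an unadjusted p under 0.05, and the median was -0.06. Under the row block the median was 0.05.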
